A study of Mus musculus with 40 samples.

Results

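Sorted epithelial cells and sorted stromal cells of the same kind of mouse colon tumor were compared, with 4 RNA-seq libraries of each, 8 of the 40 libraries of the series. The members were all libraries that the labels place in the groups T_CE (tumor epithelial cells) and T_CN (tumor stromal cells). Every one of these mice carried Cdx2CreERT2 and Apc fl/fl and had received a single intraperitoneal dose of tamoxifen, 25 mg/kg, at 8 to 10 weeks of age, so both groups share the genotype and the agent. The strain entry reads C57Bl6/Sv followed by a number that goes up with each sample, and was not used. Per the study's gating scheme, epithelial cells were EpCAM+ CD45- and stromal cells EpCAM- CD45-, so the stromal gate is defined by what it lacks and can hold any cell that carries neither antigen. The epithelial libraries are titled T1CE, T2CE, T4CE and T5CE and the stromal libraries T1CN, T2CN, T17CN and T18CN. Titles are used as names here because the labels give replicate number 3 to both T1CN and T2CN. Title numbers 1 and 2 occur in both groups, but no label says that a title number is an animal.

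Cdx2 is a gut transcription factor, and its promoter drives the Cre recombinase in epithelium of the distal gut, so loss of Apc concerns the epithelium and the stromal cells are not a target of the deletion by design. Loss of Apc, which marks beta-catenin for degradation, turns on Wnt target genes in epithelial cells. Tumor stroma is known as a mixture: fibroblasts lay down collagen matrix, endothelial cells line the vessels, pericytes wrap them, smooth muscle and enteric glia come from the gut wall, and leukocytes migrate in from blood. Each of these cell types is recognised by a few defining transcripts, and the data were read with 32 lists of marker and pathway genes. In bulk RNA, fewer cells of a type and less RNA of that type per cell cannot be told apart, which applies to every level below.

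Libraries held 12815805 to 33319740 counts on genes, and mitochondrially encoded genes took 46.3% to 60.5% of the counts in the epithelial libraries, 27.4% in T1CN, 24.8% in T2CN, 55.4% in T17CN and 62.9% in T18CN. Every pair of libraries in a group differed by more than counting error. All 8 were counted as separate samples because the labels list them so, and whether T1CN and T2CN, which carry the same replicate number, came from separate animals was not tested. The targeted gene, Apc, was at 5.97, 6.51, 6.02 and 6.31 RPKM (read counts scaled for gene length and for the size of the library, as deposited by the authors) in T1CE, T2CE, T4CE and T5CE, and at 3.49, 3.19, 4.78 and 4.13 RPKM in T1CN, T2CN, T17CN and T18CN. An RPKM over the whole gene does not isolate the floxed part, so it does not check the deletion. The transcript of Xist was at 46.8 RPKM in T5CE and 51.6 RPKM in T18CN, and at no more than 0.0528 RPKM in the other libraries, so each group holds 1 library of that kind.

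The stromal libraries did not form 1 group. Over the 16985 genes kept for testing, 13.8% in T1CN and 15% in T2CN lay more than 2-fold above the highest of the 4 epithelial libraries, against 2.59% in T17CN and 3.64% in T18CN. The shares lying more than 2-fold below the lowest epithelial library were 7.35% and 12.1% in T1CN and T2CN and 0.530% and 1.32% in T17CN and T18CN. When each epithelial library was set against the other 3 in the same way, 1.04% to 5.05% of genes were above and 0.854% to 9.10% below. Across genes, which are not independent replicates, the log2 level correlated with the mean of the epithelial libraries at r = 0.751 in T1CN and 0.709 in T2CN, and at 0.948 in T17CN and 0.929 in T18CN, while single epithelial libraries gave 0.914 to 0.962. List counts below are therefore given over all 8 libraries or in a comparison of 4 libraries (T1CE and T2CE against T1CN and T2CN), which leaves out T4CE and T5CE as well as T17CN and T18CN.

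**Figure D1:**
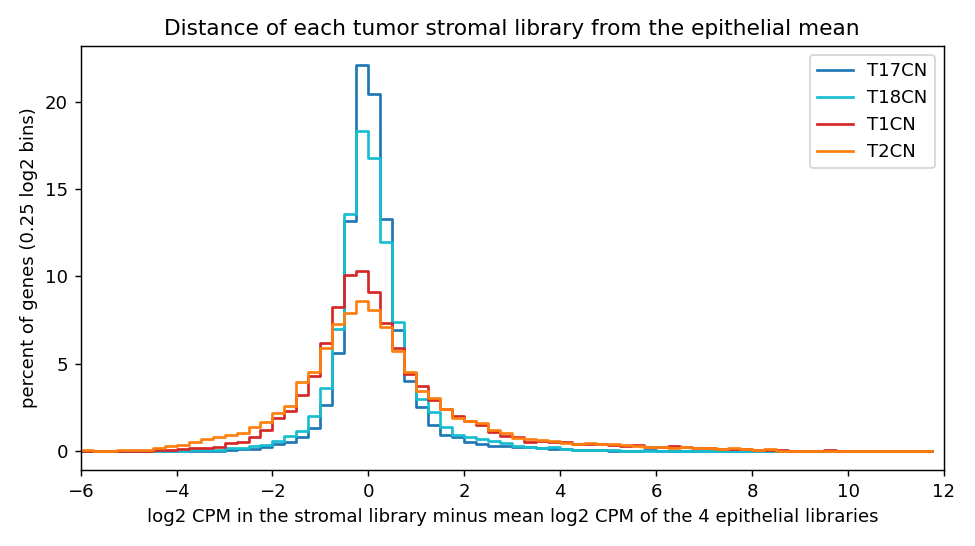
Share of the 16985 tested genes (y axis, percent, in bins of 0.25) against the difference in log2 CPM (counts scaled to library size) between 1 stromal library and the mean of the 4 epithelial libraries (x axis). The curves of T17CN and T18CN are narrow around 0, and those of T1CN and T2CN are broad, with a long tail of genes higher in the stromal library.

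Epcam, the epithelial adhesion molecule used as the sort antigen (ENSMUSG00000045394, mm10 chromosome 17 from 87635979 to 87651129), was at 41.9, 34.5, 81.0 and 46.4 RPKM in T1CE, T2CE, T4CE and T5CE. In the stromal libraries it was at 12.8 RPKM in T1CN, 5.43 in T2CN, 51.0 in T17CN and 31.5 in T18CN. T17CN lay inside the epithelial range, T18CN just under it, and T1CN and T2CN well under it. Over all 8 libraries the log2 fold change, stromal minus epithelial throughout, was -0.97 (standard error, SE, 0.57, adjusted p = 0.463, edgeR quasi-likelihood test with Benjamini-Hochberg adjustment). In the stromal libraries of healthy colon, Epcam reached 0.0678 to 4.42 RPKM. These healthy stromal cells (group WT_CN, 4 libraries, strain C57Bl6, no transgene and no agent) differ from the tumor groups in strain as well and serve as a reference without a test.

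The other sort antigen, CD45, is the product of Ptprc, a phosphatase of all white blood cells (ENSMUSG00000026395, chromosome 1 from 138062861 to 138175708). Ptprc was at 0.0452, 0.0498, 0.144 and 0.0898 RPKM in the epithelial libraries in the order above. It was at 7.29 RPKM in T1CN and 10.8 in T2CN, and at 0.586 in T17CN and 0.302 in T18CN. Every stromal library was above every epithelial one, although the gate was negative for CD45, and T1CN and T2CN were also above the 0.234 to 1.12 RPKM of healthy stromal cells. The log2 fold change over 8 libraries was 5.93 (SE 1.15) with an adjusted p of 0.0616 from edgeR's test.

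**Figure D2:**
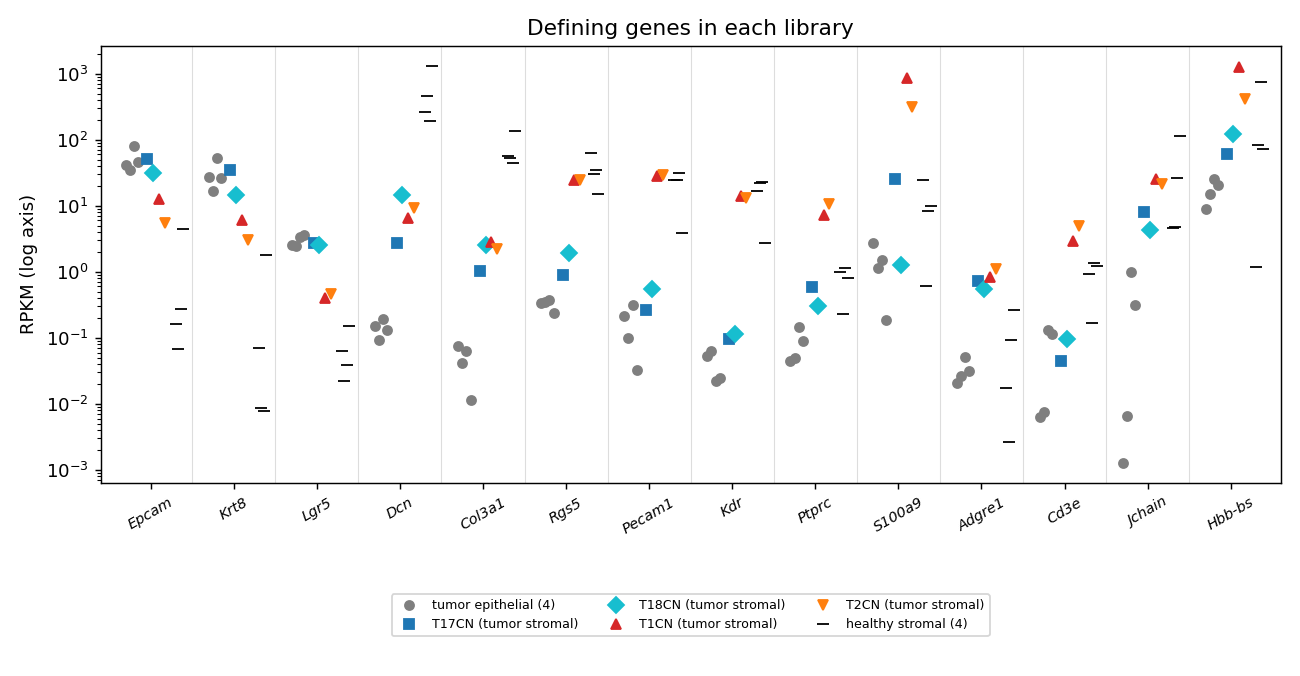
RPKM on a log axis of 14 defining genes, 1 point per library: gray circles for the 4 tumor epithelial libraries, colored symbols for the 4 tumor stromal libraries and dashes for the 4 healthy stromal libraries. Epcam, Krt8 and Lgr5 of T17CN and T18CN sit with or just under the epithelial points, whereas Pecam1, Kdr and Rgs5 of T1CN and T2CN lie far above the other 6 tumor libraries.

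In the comparison of all 8 libraries, 5 of 16985 genes (0.0294%) were called, that is, had an adjusted p below 0.05 with a log2 fold change over 1.5 in either direction. All 5 were higher in stromal cells, and 0 (0.0%) were higher in epithelial cells. At an unadjusted p under 0.05 there were 2025 genes higher in stromal and 482 higher in epithelial cells, and DESeq2 called 1953 and 74. Since the 5 are few, all are named. Dcn, Col3a1 and Adgre1 are members of the marker lists, while Axl and Rgs1 are in no list and were chosen after their values were seen. In RPKM, every stromal library lay above every epithelial library for 734 genes (4.32%) and below for 367 (2.16%). These shares and the 0.0294% called are the background for every list count taken over all 8 libraries. The median log2 fold change over all tested genes was -0.02.

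Dcn encodes decorin, a small proteoglycan that fibroblasts secrete onto collagen (ENSMUSG00000019929, chromosome 10 from 97479609 to 97518143). Its level was 0.152, 0.0936, 0.193 and 0.133 RPKM in T1CE, T2CE, T4CE and T5CE and 6.64, 9.40, 2.74 and 14.4 RPKM in T1CN, T2CN, T17CN and T18CN. All stromal libraries were above all epithelial ones, with T18CN the highest. The log2 fold change was 5.94 (SE 0.59, edgeR adjusted p = 0.0244). In healthy stromal cells Dcn was at 195 to 1322 RPKM, above every tumor stromal library.

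Col3a1, which encodes a fibrillar collagen of fibroblasts (ENSMUSG00000026043, chromosome 1 from 45311538 to 45349706), was at 0.0759, 0.0419, 0.0624 and 0.0113 RPKM in the epithelial and 2.87, 2.21, 1.04 and 2.57 RPKM in the stromal libraries. Its log2 fold change was 5.52 (SE 0.66, edgeR adjusted p = 0.0438). Adgre1, which encodes the macrophage surface protein F4/80 (ENSMUSG00000004730), had 0.0209, 0.0262, 0.0514 and 0.0319 RPKM against 0.836, 1.09, 0.731 and 0.545, a log2 fold change of 4.65 (SE 0.40, edgeR adjusted p = 0.0137). These genes are markers of 2 different cell types, and the groups overlapped for neither. Axl, a receptor tyrosine kinase used by macrophages and mesenchymal cells to bind dying cells (ENSMUSG00000002602), was at 0.0172, 0.00337, 0.0638 and 0.0310 RPKM in the epithelial libraries. In the stromal libraries Axl was at 2.59, 2.11, 0.898 and 0.878 RPKM, a log2 fold change of 5.87 (SE 0.69, edgeR adjusted p = 0.0438). Rgs1, a regulator of G protein signaling in activated lymphocytes and monocytes (ENSMUSG00000026358), was at 0.0620, 0.105, 0.0921 and 0.101 against 2.98, 3.02, 1.04 and 0.768 RPKM, with a log2 fold change of 4.42 (SE 0.52, edgeR adjusted p = 0.0438). All 5 genes kept a gap between the groups in T17CN and T18CN as well. A call over these 8 libraries favors genes that are also high in T17CN and T18CN, so the gap is not a separate result.

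The number of genes called depended on single libraries. Without T17CN 840 genes were called and without T18CN 799, whereas 0 were called without T1CE, T2CE, T5CE, T1CN or T2CN and 1 without T4CE. Leaving out both T17CN and T18CN gave 4471 of 19784 genes, 3162 (16%) higher in stromal and 1309 (6.62%) higher in epithelial cells, and leaving out T1CN and T2CN instead gave 3. A further comparison keeps the libraries whose title number occurs in both groups, T1CE and T2CE against T1CN and T2CN. Its stromal side again drops T17CN and T18CN, whose values had been seen, so it is not independent of that choice. It was added after the data were seen, has 2 libraries a group, and called 3554 of 18548 genes, 2747 (14.8%) higher in stromal and 807 (4.35%) higher in epithelial cells. The same comparison with the title number as a block called 2075 genes (11.2%) and 659 genes (3.55%). It is called the 4-library comparison below, and the shares 14.8% and 4.35% are the background for every list count taken from it. Whether T17CN and T18CN differ from T1CN and T2CN was not tested, and their values are given side by side.

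**Figure D3:**
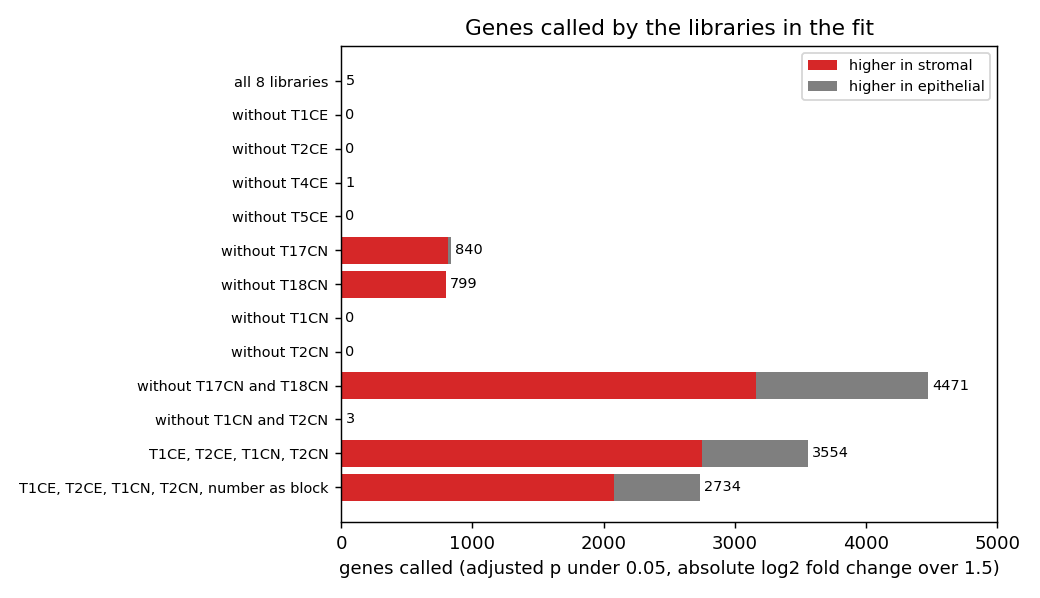
Number of genes called (x axis, adjusted p under 0.05 and absolute log2 fold change over 1.5) by edgeR for each choice of libraries (rows), split into genes higher in stromal (red) and higher in epithelial cells (gray). Fits that keep both T17CN and T18CN call at most 5 genes here, and the fits without both of them call 2734 to 4471.

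Genes of the pan-epithelial list were read in all 4 stromal libraries and reached epithelial levels in T17CN. The pan-epithelial list holds 18 genes for keratins, claudins and other junction or surface proteins. Its summed level was 269, 216, 535 and 336 RPKM in T1CE, T2CE, T4CE and T5CE. The stromal libraries gave 75.1 RPKM in T1CN, 42.1 in T2CN, 332 in T17CN and 191 in T18CN, and healthy stromal cells 6.79 to 34.2 RPKM. For the 17 members at 1 RPKM or more in epithelial cells, the median level relative to the epithelial mean was 20.9% in T1CN, 12.1% in T2CN, 94.0% in T17CN and 49.2% in T18CN, while the epithelial libraries themselves ranged from 66.0% to 166%. T17CN was within that range, and all 4 were above the 0.144% to 8.87% of healthy stromal cells. The mature colonocyte list did not follow this order, with sums of 14.6 to 62.3 RPKM in the epithelial libraries, 62.6 in T1CN, 61.5 in T2CN, 23.8 in T17CN and 14.2 in T18CN, and 64.8 to 109 RPKM in healthy stromal cells. This list was not particular to epithelium, at 24.5 to 59.7 RPKM in sorted tumor monocytes (T_CC) and 10.4 to 68.6 in sorted tumor neutrophils (T_CG). Its 6 members at 1 RPKM or more in epithelial cells ran from 17.7% to 418% of the epithelial mean in T1CN. In T2CN they ran from 8.37% to 394%. Which cells its genes come from was not tested.

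Over 8 libraries none of the 18 pan-epithelial genes was called, none separated the groups, and their median log2 fold change was -1.06. In the 4-library comparison 14 of 18 were lower in stromal cells, with a median of -2.25 beside 0.03 for all genes. Cdh1, the adherens junction cadherin, was at 29.0 and 33.4 RPKM in T1CE and T2CE and at 7.08 and 4.96 in T1CN and T2CN, a log2 fold change of -2.70 (SE 0.24, edgeR adjusted p = 8.9e-04). T17CN and T18CN held 38.5 and 28.7 RPKM of Cdh1. The claudin gene Cldn4, for a tight junction protein, had the largest fall of the list at -3.82 (SE 0.40, edgeR adjusted p = 0.00164). Krt20 and Tspan8, genes of differentiated surface epithelium, were not called and had log2 fold changes of 0.51 and 0.58 in the same comparison.

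The Wnt target and stem cell list, which Apc loss is known to raise in epithelium, followed the same order of libraries. Its 18 genes summed to 164 to 217 RPKM in the epithelial libraries, to 91.1 and 57.8 in T1CN and T2CN and to 194 and 172 in T17CN and T18CN. Lgr5, the receptor that marks intestinal stem cells, was at 2.55, 2.43, 3.42 and 3.65 RPKM in the epithelial libraries and at 0.406, 0.460, 2.75 and 2.56 in T1CN, T2CN, T17CN and T18CN. Healthy stromal cells had at most 0.150 RPKM. The 4-library comparison called 10 of 18 genes lower in stromal cells, among them Lgr5 (log2 fold change -2.84, SE 0.26, edgeR adjusted p = 9.3e-04), Smoc2 and Sox9, and 0 were higher. Goblet and secretory genes summed to 36.0 to 220 RPKM in the epithelial libraries and to 125 RPKM in T17CN, against 27.1, 25.2 and 37.0 in T1CN, T2CN and T18CN.

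**Figure D4:**
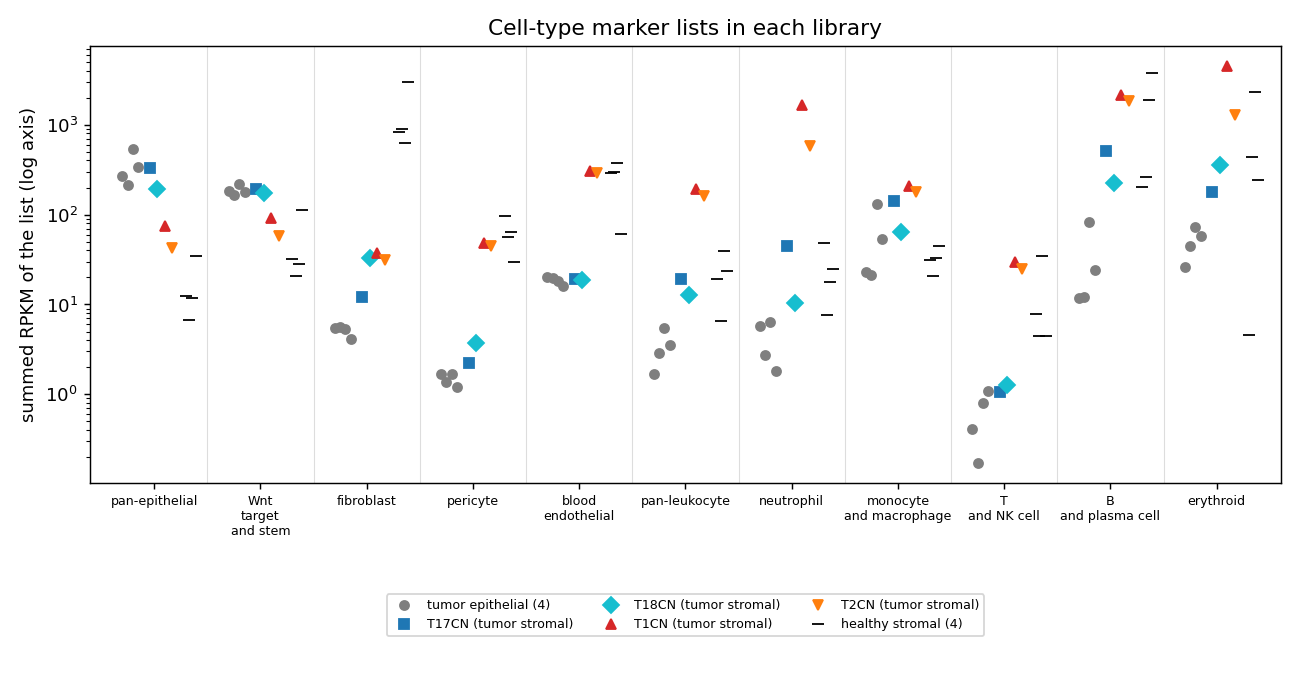
Summed RPKM of 11 marker lists on a log axis, 1 point per library, with gray circles for tumor epithelial, colored symbols for tumor stromal and dashes for healthy stromal libraries. Blood endothelial and pericyte sums of T17CN and T18CN lie beside the epithelial points, neutrophil sums of T1CN and T2CN lie above every other library plotted, and fibroblast sums of all 4 tumor stromal libraries lie far under the healthy ones.

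Fibroblast genes were above the epithelial range in all 4 stromal libraries. The 20 genes summed to 4.09 to 5.64 RPKM in the epithelial libraries and to 37.2 RPKM in T1CN, 31.6 in T2CN, 12.1 in T17CN and 32.6 in T18CN. The level was low beside healthy stromal cells, which summed to 619.5 to 3025 RPKM: the median member was at 4.56%, 3.01%, 0.933% and 2.00% of the healthy mean in T1CN, T2CN, T17CN and T18CN. In the epithelial libraries the same median was 0.0415% to 0.170%. Of 18 genes tested over 8 libraries, 2 were called (Dcn and Col3a1), 11 separated the groups upward, and the median log2 fold change was 4.39.

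Col1a1, the main fibrillar collagen gene, was at 0.140, 0.368, 0.0612 and 0.0597 RPKM in the epithelial and 3.36, 3.05, 1.03 and 1.54 RPKM in the stromal libraries (log2 fold change 3.69, SE 0.78, edgeR adjusted p = 0.0685). Col1a2 had 0.0139 to 0.0934 RPKM in epithelial cells and 1.84, 1.5, 0.504 and 1.24 RPKM in T1CN, T2CN, T17CN and T18CN. Lum, which encodes the collagen-binding lumican, had no more than 2 counts in any epithelial library and 1.99, 1.29, 0.413 and 3.81 RPKM in the stromal ones. These 3 genes separated the groups without passing the test. Pdgfra, a receptor of fibroblasts, overlapped between the groups, with 0.347 to 1.59 RPKM in epithelial and 2.08, 0.847, 0.240 and 0.428 in stromal libraries. Of 18 fibroblast genes in the 4-library comparison, 12 were higher in stromal cells and 0 lower.

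The cancer-associated fibroblast list added matrix-remodeling and cytokine genes. It summed to 4.80 to 13.2 RPKM in the epithelial libraries and 20.9, 23.7, 13.4 and 14.2 in T1CN, T2CN, T17CN and T18CN. Over 8 libraries 0 of 10 were called, and 6 of 13 were higher in the 4-library comparison. The list was not particular to fibroblasts, at 96.2 to 185 RPKM in sorted tumor monocytes (T_CC) and 30.2 to 57.5 in sorted tumor neutrophils (T_CG). Healthy stromal cells summed to 66.0 to 213 RPKM. Which cells its genes come from was not tested. Il6, the inflammatory cytokine, was at 0.0170 to 0.0507 RPKM in epithelial cells and at 6.31, 7.0, 0.316 and 0.399 RPKM in the stromal libraries, which all exceeded the epithelial ones (log2 fold change 6.59, SE 1.17, edgeR adjusted p = 0.0588). Postn, which encodes the matrix protein periostin, was at 2.89, 1.38, 0.171 and 0.519 RPKM against 0.0104 to 0.0538 in epithelial cells.

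Smooth muscle genes had a median log2 fold change of 0.53 over 8 libraries, and 0 of 10 were called. They summed to 10.1 to 21.4 RPKM in the epithelial libraries and 16.3, 12.2, 16.4 and 15.9 RPKM in T1CN, T2CN, T17CN and T18CN, under the 47.0 to 178 RPKM of healthy stromal cells. Acta2, the smooth muscle actin gene also used for myofibroblasts, was at 0.769, 0.469, 2.63 and 1.78 RPKM in the epithelial and 2.19, 2.25, 1.99 and 2.16 RPKM in the stromal libraries. The groups overlapped (log2 fold change 0.74, SE 0.40, edgeR adjusted p = 0.435). With 4 libraries, 4 of 11 genes, among them Myh11 and Smtn, were higher and Myl9, a myosin light chain gene, was lower in stromal cells.

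Vessel genes were found in T1CN and T2CN and hardly in T17CN and T18CN. The 18 blood endothelial genes summed to 302 and 292 RPKM in T1CN and T2CN, against 19.1 and 18.6 in T17CN and T18CN and 16.1 to 20.2 in the epithelial libraries. The median member reached 115% and 99.2% of the healthy stromal mean in T1CN and T2CN and 1.40% and 1.82% in T17CN and T18CN. That reference was uneven, with sums of 290, 297 and 377 RPKM in the healthy libraries WT1CN, WT6CN and WT8CN and 60.3 in WtaCN. Pecam1, the adhesion molecule of endothelial junctions, was at 0.213, 0.101, 0.311 and 0.0324 RPKM in the epithelial libraries and at 28.0, 29.7, 0.263 and 0.542 RPKM in T1CN, T2CN, T17CN and T18CN. T17CN lay inside the epithelial range, so the groups overlapped. Kdr, the main receptor for vascular endothelial growth factor, was at 0.0225 to 0.0623 RPKM in epithelial cells and at 14.1, 13.1, 0.0952 and 0.116 RPKM in the stromal libraries. Kdr separated the groups, but its log2 fold change of 7.30 had a SE of 1.74 (edgeR adjusted p = 0.0910).

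Of 16 endothelial genes tested over 8 libraries 0 were called, at a median log2 fold change of 6.09. With 4 libraries, 17 of 18 were higher in stromal cells, at a median of 6.70, including Pecam1 (7.21, SE 0.42, edgeR adjusted p = 2.5e-04), Kdr (7.55, SE 0.27, edgeR adjusted p = 1.4e-04) and Tie1 (8.32, SE 0.39, edgeR adjusted p = 1.5e-04). Sox17, a transcription factor, was the exception, at 7.03 and 4.26 RPKM in T1CN and T2CN and 10.0 and 8.52 in T1CE and T2CE. Cdh5, the vascular cadherin gene, was not absent from epithelial libraries, at 3.94 to 4.26 RPKM, and reached 53.5 and 60.8 RPKM in T1CN and T2CN.

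Promoter sequence is shown for endothelial genes that were high together in T1CN and T2CN and for Epcam, which was low there. Windows are the 250 bases before the RefSeq start in GRCm38.p6 (mm10), printed along the gene's strand, with every AGGAAG or its complement on the other strand, CTTCCT, in capitals. These letters hold the GGAA core that ETS family factors such as the product of Erg, a list member, bind. The windows lie at chr2:32646345-32646594 (plus strand) for Eng, the endothelial TGF-beta coreceptor, chr4:118489850-118490099 (minus strand) for Tie1, an endothelial receptor kinase, chr3:137340828-137341077 (plus strand) for Emcn, a sialomucin of capillary endothelium, and chr17:87635729-87635978 (plus strand) for Epcam.
Eng: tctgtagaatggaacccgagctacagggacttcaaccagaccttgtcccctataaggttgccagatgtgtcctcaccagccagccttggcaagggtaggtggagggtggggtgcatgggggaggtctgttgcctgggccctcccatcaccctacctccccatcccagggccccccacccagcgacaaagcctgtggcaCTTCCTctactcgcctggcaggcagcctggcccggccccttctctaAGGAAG
Tie1: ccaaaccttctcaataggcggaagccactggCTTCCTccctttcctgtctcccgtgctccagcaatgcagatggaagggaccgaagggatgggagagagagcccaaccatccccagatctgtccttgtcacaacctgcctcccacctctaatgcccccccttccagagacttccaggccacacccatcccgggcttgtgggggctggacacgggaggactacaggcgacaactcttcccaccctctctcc
Emcn: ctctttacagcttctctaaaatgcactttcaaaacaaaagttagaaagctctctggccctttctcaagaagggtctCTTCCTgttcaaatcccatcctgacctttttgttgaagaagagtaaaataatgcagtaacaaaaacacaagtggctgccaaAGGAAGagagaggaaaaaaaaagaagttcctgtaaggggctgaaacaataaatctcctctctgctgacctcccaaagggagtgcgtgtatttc
Epcam: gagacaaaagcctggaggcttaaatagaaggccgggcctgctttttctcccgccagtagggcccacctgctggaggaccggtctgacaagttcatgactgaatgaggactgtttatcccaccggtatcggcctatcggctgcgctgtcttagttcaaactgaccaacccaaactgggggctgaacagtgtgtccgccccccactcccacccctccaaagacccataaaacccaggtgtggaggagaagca
Eng and Emcn each hold 2 matches, Tie1 1 and Epcam 0. The letters occur in 8 of 14 windows of the 10 endothelial genes with an entry (57.1%), in 6 of 14 windows of 13 pan-epithelial genes (42.9%) and in 9686 of all 32851 windows (29.5%). A match describes the letters of the window and is not shown to be a bound site.

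Pericyte genes followed the endothelial ones. The 10 genes summed to 48.6 and 45.1 RPKM in T1CN and T2CN, to 2.26 and 3.77 in T17CN and T18CN and to 1.21 to 1.70 in the epithelial libraries. The median member was at 57.3% and 58.2%, then 3.10% and 5.13%, of healthy stromal cells. Rgs5, a G protein regulator abundant in pericytes, was at 0.340, 0.346, 0.381 and 0.241 RPKM in the epithelial libraries and 24.9, 24.4, 0.902 and 1.91 RPKM in the stromal ones (log2 fold change 5.29, SE 1.07, edgeR adjusted p = 0.0623). All stromal libraries were above the epithelial range. Among the 4 libraries, 7 of 9 pericyte genes were higher in stromal cells and 0 lower, among them Rgs5, Abcc9, a subunit of a potassium channel, and Mcam, a surface adhesion molecule.

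Leukocyte genes were present in a gate defined as CD45-. The 10 pan-leukocyte genes summed to 1.69 to 5.52 RPKM in the epithelial libraries and to 193, 163, 19.2 and 12.7 RPKM in T1CN, T2CN, T17CN and T18CN, compared with 6.52 to 39.4 in healthy stromal cells. The median member was at 18%, 15.7%, 1.55% and 0.928% of the mean of tumor neutrophils sorted from the same tumor model (group T_CG, 4 libraries). Over 8 libraries 8 of 10 genes separated the groups upward, beside 4.32% of all genes. Of the 10, 0 were called, beside 0.0294% of all genes, and the median log2 fold change was 5.11. All 10 were called higher in stromal cells in the 4-library comparison.

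Neutrophil genes ranged widely among the stromal libraries. They summed to 1640 RPKM in T1CN, 574 in T2CN, 44.5 in T17CN and 10.4 in T18CN, and to 1.81 to 6.39 in the epithelial libraries. As a share of sorted tumor neutrophils, the median member was at 16.9%, 10.2%, 0.529% and 0.185%. S100a9, a calcium-binding protein that neutrophils carry in bulk, was at 2.73, 1.13, 1.54 and 0.188 RPKM in the epithelial and 864, 316, 25.6 and 1.27 RPKM in the stromal libraries, with T18CN inside the epithelial range. Cxcr2, the chemokine receptor that guides neutrophils, was at 0.0128 to 0.0593 RPKM in epithelial cells and 42.3, 30.9, 1.43 and 0.559 RPKM in the stromal libraries, which did not overlap (log2 fold change 9.12, SE 1.61, edgeR adjusted p = 0.0588). Over 8 libraries 6 of 11 tested genes separated the groups upward and 0 were called, and 13 of 14 were higher in the 4-library comparison.

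Macrophage genes were spread more evenly over the stromal libraries. The median member of the monocyte and macrophage list was at 13%, 14.5%, 4.76% and 3.82% of sorted tumor monocytes (group T_CC, 4 libraries) in T1CN, T2CN, T17CN and T18CN, and 13 of 16 genes separated the groups upward. C1qb, a complement component made by tissue macrophages, was at 0.0326, 0.0153, 0.333 and 0.0174 RPKM in the epithelial and 2.56, 3.52, 4.81 and 2.32 RPKM in the stromal libraries, with T17CN the highest (log2 fold change 5.17, SE 0.85, edgeR adjusted p = 0.0588). Csf1r, the growth factor receptor of macrophages, was at 3.45, 4.99, 2.38 and 1.47 RPKM against 0.0991 to 0.464 in epithelial cells. Lyz2, the myeloid lysozyme gene, overlapped between the groups, at 17.9, 16.8, 123 and 48.2 RPKM in the epithelial and 52.2, 59.9, 104 and 43.6 RPKM in the stromal libraries.

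Antigen presentation genes, the class II molecules of dendritic cells, macrophages and B cells, behaved like the macrophage genes. They summed to 178, 203, 78.5 and 53.2 RPKM in T1CN, T2CN, T17CN and T18CN and to 1.65 to 13.9 in the epithelial libraries. Cd74, the invariant chain of class II, was at 138.5, 144.97, 47.1 and 35.5 RPKM against 1.38 to 10.9 in epithelial cells (log2 fold change 4.01, SE 0.70, edgeR adjusted p = 0.0588). All 7 genes tested in the 4-library comparison were higher in stromal cells.

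Lymphocyte genes differed in kind between libraries. T and NK cell genes summed to 29.5 and 24.6 RPKM in T1CN and T2CN, and to 1.05 and 1.26 in T17CN and T18CN, near the 0.172 to 1.09 of the epithelial libraries. Cd3e, part of the T cell receptor complex, was at 2.88, 4.87, 0.0445 and 0.0958 RPKM in the stromal libraries and 0.00633 to 0.130 in the epithelial ones, so T17CN and T18CN were in the epithelial range. B and plasma cell genes, by contrast, summed to 2155, 1830, 509 and 223 RPKM against 11.8 to 81.8 in epithelial cells, nearly all from immunoglobulin segments. Healthy stromal cells summed to 205 to 3765 RPKM for this list and to 4.50 to 34.4 RPKM for T and NK cell genes. Jchain, which joins secreted IgA and IgM, was at 0.00127, 0.00655, 1.01 and 0.313 RPKM in the epithelial and 25.8, 21.5, 8.18 and 4.28 RPKM in the stromal libraries. The groups did not overlap for Jchain, with a log2 fold change of 5.73 (SE 1.34, edgeR adjusted p = 0.0842). Ms4a1, the B cell surface gene for CD20, was at 1.20 RPKM in T2CN and at most 0.0473 in the other 3 stromal libraries.

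Erythroid and mast cell genes completed the blood-derived signal. Hbb-bs, an adult beta-globin gene with a near-identical neighbor, Hbb-bt, was at 8.82, 15, 25.1 and 20.7 RPKM in the epithelial and 1282, 416, 61.9 and 123 RPKM in the stromal libraries (log2 fold change 4.79, SE 0.91, edgeR adjusted p = 0.0616). Every stromal library was above the epithelial ones. The erythroid list summed to 178 to 4526 RPKM in the tumor stromal libraries and to 4.53 to 2309 RPKM in healthy stromal cells. Mast cell and eosinophil genes summed to 16.8 and 9.47 RPKM in T1CN and T2CN, 1.31 in T17CN and 0.132 in T18CN. Healthy stromal cells had 0.473 to 13.5 RPKM of this list. The mucosal mast cell protease gene Mcpt2 had at most 2 counts in an epithelial library and 8.46, 4.16, 0.243 and 0.0249 RPKM in the stromal libraries. Enteric glia genes summed to 4.07, 1.51, 4.37 and 3.76 RPKM, against 4.00 to 6.43 in epithelial libraries and 10.9 to 25.2 in healthy stromal cells. In epithelial libraries the highest member was at 287% to 460% of the healthy mean, but the median member at 2.57% to 11.9%. The median member was at 23.5%, 6.61%, 4.23% and 5.86% in T1CN, T2CN, T17CN and T18CN. The 4-library comparison called 2 of 6 genes higher in stromal cells and 1 lower.

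By abundance the libraries led with different products. Mitochondrially encoded genes, ribosomal protein genes and the predicted gene Gm20594 were left out of this ranking. Among the remaining protein-coding and immunoglobulin genes, the highest RPKM in T1CN belonged to Igkc (the kappa light chain constant gene, 1743), Hbb-bt (1449) and Hbb-bs (1282). In T2CN it belonged to Igkc (1491), B2m (750) and the light chain segment Igkj1 (540). In T17CN they were Igkc (375), Hspa5 (163), a chaperone of the secretory pathway, and Egr1 (153), an immediate early gene. In T18CN they were B2m (181), the light chain of class I molecules, Igkc (163) and Hbb-bt (143.8).

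TGF-beta ligands and activators were measured because the study asks which tumor cells supply latent TGF-beta and the protease that frees it. Tgfb1 was at 0.478, 0.645, 0.761 and 0.556 RPKM in the epithelial and 3.11, 3.61, 0.837 and 0.665 RPKM in the stromal libraries, with T18CN inside the epithelial range (log2 fold change 1.75, SE 0.55, edgeR adjusted p = 0.177). Tgfb1 was higher in stromal cells in the 4-library comparison (2.26, SE 0.39, edgeR adjusted p = 0.0103). Tgfb2 was at 2.22, 2.48, 1.72 and 2.12 RPKM in the epithelial libraries and 1.12, 0.812, 2.18 and 2.17 RPKM in the stromal ones, which overlapped (log2 fold change -0.48, SE 0.39, edgeR adjusted p = 0.600). It was lower in stromal cells in the 4-library comparison (-1.61, SE 0.30, edgeR adjusted p = 0.0131). Tgfb3 was at 0.608, 0.156, 1.24 and 0.619 against 0.685, 0.563, 1.02 and 0.896 RPKM, and its log2 fold change of 0.38 was not called in the 8-library comparison or, at 0.38, in the 4-library one.

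Mmp9, a protease that can release TGF-beta from its latent complex and a member of the neutrophil list, was at 0.00339 to 0.0393 RPKM in epithelial cells. The stromal libraries had 6.09, 2.92, 0.221 and 0.125 RPKM, in the order in which they carried neutrophil genes (log2 fold change 6.89, SE 1.42, edgeR adjusted p = 0.0659). The share of Mmp9 that comes from neutrophils in the stromal gate was not tested. Lrrc32, which holds latent TGF-beta on the cell surface, was at 0.0415 to 0.159 RPKM in epithelial cells and 14.6, 15.4, 0.272 and 0.433 RPKM in the stromal ones. Between the 4 libraries, 6 of 18 ligand and activation genes were higher in stromal cells (Tgfb1, Ltbp4, Lrrc32, Mmp2, Mmp9 and Inhbb) and 3 lower (Tgfb2, Ltbp1 and Itgb6, an integrin of epithelium that activates TGF-beta).

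Receptors and targets of TGF-beta gave 10 of 21 genes higher in stromal cells in the 4-library comparison and 0 lower, and 1 of 21, Dcn, over all 8 libraries.  Igfbp7, a secreted growth factor binder abundant in endothelium, was at 1.67, 0.463, 0.933 and 0.196 RPKM in the epithelial and 247, 225, 3.35 and 7.84 RPKM in the stromal libraries (log2 fold change 7.15, SE 1.56, edgeR adjusted p = 0.0744). Sparc, a collagen-binding protein of fibroblasts and endothelium, was at 0.631 to 2.56 RPKM in epithelial cells and 81.3, 96.2, 4.68 and 9.35 RPKM in the stromal libraries (log2 fold change 4.90, SE 1.04, edgeR adjusted p = 0.0705). For both genes every stromal library was above every epithelial one, and T17CN and T18CN held a small part of the level of T1CN and T2CN. The receptor gene Tgfbr2 was at 17.9 and 11.5 RPKM in T1CN and T2CN and at 3.22 and 2.52 in T17CN and T18CN, inside the 1.32 to 3.76 of the epithelial libraries. Smad2, Smad3 and Smad4, the intracellular mediators, had log2 fold changes between -0.20 and 0.14 over 8 libraries and were not called in either comparison.

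Basement membrane genes form the sheet under epithelium and around vessels. Of 22 genes, 13 were higher and 1 lower in stromal cells in the 4-library comparison, and 0 of 21 were called over 8 libraries. Col4a1, the network collagen under endothelium and epithelium, was at 1.45, 0.703, 1.07 and 0.958 RPKM in the epithelial and 38.7, 43.0, 1.25 and 1.69 RPKM in the stromal libraries. Nid1, which links laminin to that network, was at 0.0744 to 0.425 RPKM in epithelial cells and 26.8, 30.5, 0.471 and 1.33 RPKM in the stromal libraries, all above the epithelial range.

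Niche signals for the stem cell compartment summed to 33.8 to 70.1 RPKM in the epithelial libraries. The stromal sums were 28.0, 20.8, 51.1 and 41.1 RPKM in T1CN, T2CN, T17CN and T18CN. T1CN and T2CN thus lay below the epithelial range and T17CN and T18CN inside it. All 8 libraries were under every healthy stromal library. In the 4-library comparison 7 of 20 tested genes of this list were higher in stromal cells and 2 lower, and 0 were called over 8 libraries. Sfrp1, a secreted Wnt inhibitor of mesenchyme, was at 0.000744 to 0.0196 RPKM in epithelial cells and 0.887, 1.65, 0.300 and 1.28 RPKM in the stromal libraries (log2 fold change 6.56, SE 0.85, edgeR adjusted p = 0.0514). Grem1, a BMP antagonist of subepithelial fibroblasts, was at 0.449, 0.834, 0.178 and 0.821 RPKM in the stromal libraries and at most 0.0632 in the epithelial ones. For both genes T18CN was above T1CN, as it was for Dcn and Lum. The R-spondin genes Rspo1, Rspo2 and Rspo3, whose products amplify Wnt signals, had at most 0.113 RPKM in any of the 8 libraries.

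Of 16 chemokine genes tested over 8 libraries, 0 were called. Cxcl12, which mesenchymal and endothelial cells make, was at 0.00948 to 0.0932 RPKM in the epithelial and 13.9, 6.97, 0.122 and 0.313 RPKM in the stromal libraries. Cxcl9, an interferon-induced attractant of T cells, was at 18.4 and 15.3 RPKM in T1CN and T2CN and at 0.328 and 0.710 in T17CN and T18CN, inside the 0.0430 to 1.08 of the epithelial libraries. Cxcl5, a neutrophil attractant, went the other way, at 1.58 and 0.673 RPKM in T1CE and T2CE against 0.0362 and 0.0101 in T1CN and T2CN (log2 fold change -5.87, SE 0.95, edgeR adjusted p = 0.00780), with 1.01 and 0.669 RPKM in T17CN and T18CN. The neutrophil attractant Cxcl1 overlapped, with 5.23 to 23.6 RPKM in epithelial and 6.43 to 19.5 RPKM in stromal libraries. In the 4-library comparison 7 of 17 chemokine genes were higher in stromal cells and 1, Cxcl5, was lower.

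Genes that tissue digestion is known to induce, such as Fos, Jun and Atf3, were high in both groups and set them apart little. They summed to 535 to 1066 RPKM in the epithelial and 953, 704, 878 and 610 RPKM in T1CN, T2CN, T17CN and T18CN. Over 8 libraries 0 of 18 were called at a median log2 fold change of 0.15, and 1 of 18, the heat shock gene Hspa1a, which has a near-identical copy, was called higher in stromal cells in the 4-library comparison. Cell cycle genes gave 0 of 20 calls in both comparisons.

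The largest changes of the 4-library comparison were taken among its called genes of at least moderate level. For each of these genes, T1CN and T2CN both lay above or both below all 4 epithelial libraries in RPKM. The 10 highest in stromal cells were Ednrb, an endothelin receptor, Gimap6, a lymphocyte GTPase, Fabp4, a lipid carrier of capillary endothelium, and 7 immunoglobulin genes, Igkv1-117, Igkj1, Igkv1-122, Igkv1-110, Jchain, Igkc and Igha. The segments of the kappa locus resemble each other, so the reads of one cannot be told apart with certainty from those of another. The 10 lowest began with Cfi, a complement regulator made by epithelium (log2 fold change -5.16), Pnliprp2, a lipase (-4.53), Pnliprp1 (-4.13) and Srrm4 (-4.01). The others were Cldn4, Gm830, Rdh1, Marveld2, a junction protein, Adcy1 and Foxa1, an epithelial transcription factor. Since strand was not stated for the counting, named genes that another gene overlaps are uncertain, among them Col3a1 (Gm47302), Eng (Fpgs), Igfbp7 (Polr2b), Tgfb3 (Ttll5), Coro1a (Bola2), Csf1r (Hmgxb3) and Col4a1 (Col4a2).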

How the data were processed

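RNA of sorted cells was amplified to cDNA (NuGEN Ovation V2) and made into TruSeq Nano libraries. Per the submitters' processing notes and the study's methods, reads were demultiplexed with bcl2fastq and mapped to mm10 with Bowtie2, and the authors deposited expected counts per gene, not normalized, and RPKM values. Annotation release, strand and handling of multiply mapped reads were not given in the sources used here. Among expected counts above 0, 99.5% were fractional (tolerance 1e-06), so they were rounded, which changed a library total by at most 896. Of 45706 genes, 45143 had a symbol in GENCODE M21, whose GRCm38 coordinates are printed.

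Counts of the 8 libraries were tested in R 4.3.3 by edgeR 4.0.16 (quasi-likelihood, robust) after TMM normalization and filterByExpr. Calls needed a Benjamini-Hochberg adjusted p below 0.05 with a log2 fold change over 1.5 in either direction. A gene list level is the sum of deposited RPKM, or the median over members at 1 RPKM or more of the percentage of a reference group's mean. No fold was given against a group with at most 3 counts in each library. The labels do not say that replicates are separate animals, so p-values measure only the spread between these samples. The script was tested on simulated data. Alternatives were limma-voom (limma 3.58.1), DESeq2 1.42.0, other filters, scalings, blocks and sets of libraries. Named genes were the sort antigens, genes the study names, members of the lists, the 10 largest changes per direction among called genes whose mean log2 CPM reached 5 and whose groups did not overlap, and the 10 genes of highest RPKM in each stromal library outside mitochondrially encoded and ribosomal protein genes. The members and the lists (447 genes, 442 matched, 345 tested) were chosen with earlier results of these data known. Promoter windows came from RefSeq. Some list members are not reported here.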

Additional observations from a re-analysis of the deposited data

Results flagged for a closer look

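2 of 94 groups of 4 library sums had 1 library farther from the rest than a Dixon test at 95% allows, and chance alone flags about 1 in 20. The goblet and secretory list summed to 125 RPKM in the stromal library T17CN, while the other 3 stromal libraries ranged from 25.2 to 37.0 RPKM. The smooth muscle and myofibroblast list summed to 12.2 RPKM in the stromal library T2CN, against 15.9 to 16.4 RPKM in the other 3.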

How the results depend on the processing

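The count of 5 genes called over 8 libraries moved with almost every choice. It was 9 without a filter on low counts, 3 with at least 10 counts in every library, 2 with RLE size factors, 0 with limma-voom (1982 genes at an unadjusted p under 0.05), 2027 with DESeq2, 6 and 105 with limma on log2 RPKM at pseudocounts 1 and 0.1, and 779 in 1 fit of 16 tumor libraries. Without mitochondrially encoded genes, or with no fold threshold, it stayed at 5. Leaving out 1 library gave 0 to 840 genes (799 without T18CN). The choices added after the data were seen gave 4471 without T17CN and T18CN, 3 without T1CN and T2CN, and 3554 with T1CE, T2CE, T1CN and T2CN alone. The 3 list genes called became 7 without a filter, 0 with limma-voom, 164 with DESeq2, 5 and 21 with limma on log2 RPKM, 95 in the fit of 16 libraries, and 0 to 107 when 1 library was left out. They became 241 without T17CN and T18CN and 214 in the 4-library comparison.

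With the replicate number as a block 22 genes were called. Of the 5 genes called without it, Axl still was (edgeR adjusted p = 0.0489), while Dcn (0.0520), Col3a1 (0.0517), Adgre1 (0.0507) and Rgs1 (0.0632) missed the threshold. With the title number as a random block in limma-voom, 0 genes and 0 list genes were called. In the 4-library comparison, the title number as a block gave 2734 genes and 203 list genes. The deviations of libraries with the same replicate number correlated at -0.097 to -0.021 and those with the same title number at 0.035 and 0.054. Library pairs sharing neither number spanned -0.099 to 0.202, so this check cannot show whether either number pairs the samples. Neither number was taken to do so. Tgfb2 went from -0.48 to 0.0012 without T1CN and T2CN and Tgfb3 from 0.38 to -0.14 without T17CN and T18CN, neither called. The pan-epithelial level kept its order of libraries under 5 other scalings or summaries. It ranged over 19.1% to 37.4% in T1CN, 11.4% to 25.3% in T2CN, 91.7% to 100.5% in T17CN and 44.8% to 56.9% in T18CN. The cause of these shifts was not tested. Members at 3 counts or fewer in epithelial libraries are limited by depth.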

Other observations

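Prox1, a lymphatic endothelial marker, is also a Wnt target of tumor epithelium and dominated the lymphatic endothelial sum here. It was at 42.5 to 50.4 RPKM in the 4 epithelial libraries and 17.1, 4.95, 46.0 and 39.4 RPKM in T1CN, T2CN, T17CN and T18CN. The whole lymphatic list therefore summed higher in the epithelial libraries (43.4 to 51.5 RPKM) than in T1CN (29.0) or T2CN (15.5). Of its 7 genes tested in the 4-library comparison, however, 4 were called higher in stromal cells and 1 lower.

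Krt20 and Tspan8 had the least depletion of the pan-epithelial list in T1CN. Tspan8 was at 6.97 RPKM in T1CN and 3.85 in T2CN, against 2.97 and 2.78 RPKM in T1CE and T2CE. Krt20 was at 2.36 and 2.01 RPKM against 1.06 and 1.38. These values leave out T4CE and T5CE. Against the mean of all 4 epithelial libraries, the highest of the 17 list members at 1 RPKM or more was at 121% in T1CN and 79.0% in T2CN. The log2 fold change of Krt20 was -0.34 over all 8 libraries and 0.13 without T4CE. Krt20 and Tspan8 were chosen after their values were seen, and neither was called.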
